A study of Mus musculus with 14 samples.

Results

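The comparison of Atoh1 knockout with control crypts of the mouse colon rests on 4 RNA-seq libraries of the 14 in the series, chosen by their titles, 2 named KO and 2 named WT. The KO crypts came from Atoh1lox/lox;VilCreERT2 mice, in which both copies of Atoh1 are floxed. VilCreERT2 is a recombinase under the villin promoter of the intestinal epithelium, of a kind that tamoxifen switches on. The WT crypts came from Atoh1lox/WT;VilCreERT2 littermates, which also carried the recombinase but had 1 floxed allele, so they are controls for the recombinase and not mice with unmodified Atoh1. All were 6 to 8 weeks old. The labels give neither the induction and its timing nor the share of crypt cells that recombined. The other libraries, from ileum crypts of the same genotypes (2 KO and 2 WT) and from cells of ATOH1-GFP mice sorted from both tissues (3 libraries in colon), are used here for the spread between samples and a few side-by-side values. The labels do not say that the libraries of a group came from separate mice, so the p-values cover only the spread among these libraries. That spread may be technical in WT, while the 2 KO libraries differed in sex by their transcripts, as given below.

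ATOH1 is a basic helix-loop-helix transcription factor that commits crypt progenitors to the secretory lineage. Notch signalling represses it in neighbouring cells, which become absorptive colonocytes. In the colon the secretory lineage is made up mainly of goblet cells, which store and release the mucus gel, with deep crypt secretory cells near the stem cells and scattered enteroendocrine cells. ATOH1 binds E-boxes, short motifs of the form CANNTG, together with an E protein partner.

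Gene counts were 10483695 and 10768362 in the KO libraries and 8848660 and 10870416 in the WT libraries. Levels are given as CPM, counts scaled to a common library size with TMM, a factor that corrects for differences in library composition. For these levels the factors came from all 14 libraries together. They were 1.306 to 1.346 in the colon crypt libraries and 0.6375 to 0.7241 in the sorted colon cells. The libraries were epithelial and of distal gut. Epcam, an epithelial adhesion protein, had 1670 and 1732 CPM in KO and 1533 and 1475 CPM in WT, and Hoxb13, a marker of distal colon, had 224 and 198 CPM in KO and 180 and 173 CPM in WT. Fabp6, the bile acid binding protein of ileal enterocytes, had 14.2 and 27.7 CPM in KO and 23.0 and 7.79 CPM in WT.

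KO 2 stood apart from the other colon libraries by sex. Xist, the RNA that silences an X chromosome in females, had 690 CPM in KO 2 and 1.88 CPM in KO 1, against 3.20 and 2.05 CPM in WT. The 4 Y-linked genes Eif2s3y, Kdm5d, Ddx3y and Uty had 0.0702 to 0.211 CPM in KO 2, 29.9 to 68.3 CPM in KO 1, and 30.1 to 67.5 and 30.7 to 54.3 CPM in the WT libraries. KO 2 was thus female by these transcripts and the other 3 were male. The noncoding RNA Gt(ROSA)26Sor, from the Rosa26 locus often used for knock-in alleles, had 28.2 CPM in KO 1 and 0.773 CPM in KO 2, against 15.9 and 24.8 CPM in WT. Pla2g2a, a secreted antimicrobial phospholipase that is inactive in some inbred strains, had 213 and 4.21 CPM in KO and 24.7 and 475 CPM in WT. In ileum too the KO library numbered 2 had the Xist RNA, at 872 CPM against 2.58 CPM in ileum KO 1, and the lowest Gt(ROSA)26Sor and Pla2g2a. The labels do not state sex, strain background or a shared animal. The part of sex or of these loci in the KO and WT differences was not tested, and the results without KO 2 are given with the counts below.

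**Figure D1:**
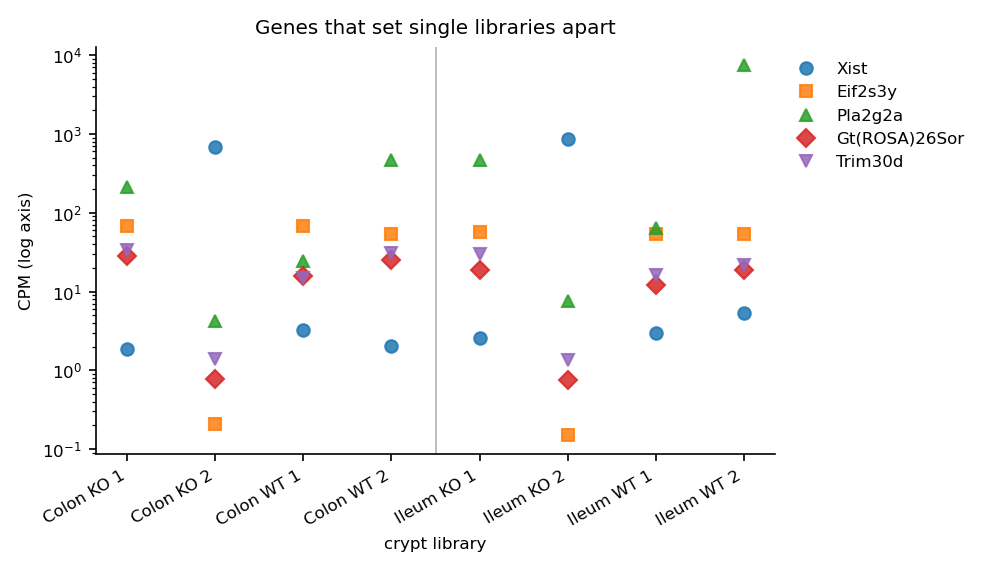
CPM on a log axis of 5 genes in each crypt library, colon on the left of the grey line and ileum on the right, KO before WT in each tissue. Xist is high in colon KO 2 (690 CPM) and ileum KO 2 (872 CPM) and low in the other 6 libraries, where Eif2s3y is high, and Gt(ROSA)26Sor and Trim30d are lowest in the same 2 libraries.

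The question of the comparison is which genes of the colon crypt need ATOH1. A small set of genes, many of them on the goblet cell lists, was lower in KO crypts, and 1 gene was higher. With edgeR's quasi-likelihood test on the 8 crypt libraries and Benjamini-Hochberg adjustment over 14415 genes, 21 genes were called lower in KO than in WT (0.146%) and 1 was called higher (0.00694%) at an adjusted p under 0.05. The median log2 fold change over all genes tested was 0.01. In the same direction, 187 genes had both KO libraries at or below 1/2 of both WT libraries at a WT mean of at least 1 CPM (1.3%), against 14 genes with both KO libraries at least 2-fold above both WT libraries (0.0971%). At a mean of 100 CPM or more in the higher group, 28 genes stood apart in this way as lower in KO and 0 as higher. These shares over all genes are the ones to set beside the list counts below. The lists were chosen with earlier results of these data known.

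The calls rest on few libraries, and the 8-library fit treats colon and ileum libraries of the same number as independent. Without KO 1 or without KO 2 edgeR called 0 genes (795 and 623 had an unadjusted p under 0.05), although each of the 20 called genes named by rule kept its direction under all 11 alternatives. That direction could hardly turn, as every KO library of these 20 genes lay at least 2-fold from every WT library. When the 4 colon libraries were fitted alone, 93 of 13801 genes were called lower (0.674%) and 9 higher (0.0652%), including 21 of the 22 genes above. In that fit 89 genes were called without KO 1 and 54 without KO 2, the female library. DESeq2 called 145 genes lower and 14 higher.

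**Figure D2:**
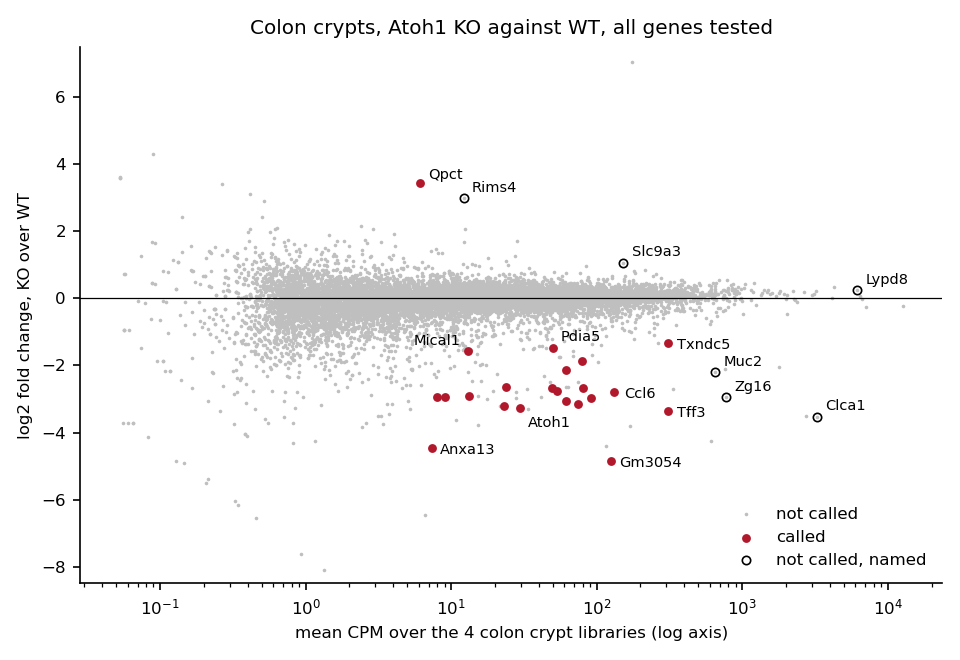
Log2 fold change of KO over WT against the mean CPM of the 4 colon libraries (log axis), for genes tested with a mean above 0.05 CPM. Red points are the 22 called genes and open circles are named genes that were not called. The red points lie below 0 except Qpct, and the abundant mucus genes Muc2, Zg16 and Clca1 lie low without being called.

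Atoh1 itself had 5.201 and 5.90 CPM in KO, against 62.6 and 44.7 CPM in WT. Both KO libraries lay far below both WT libraries, and some Atoh1 RNA was left in each. The gene fell 9.70-fold (log2 fold change −3.28, SE 0.22, edgeR adjusted p = 0.00515). The counts behind the KO values were 72 and 84 reads. Whether they came from cells that had not recombined or from a part of the transcript outside the deletion was not tested. In bulk crypts, fewer cells of a type and less RNA per cell cannot be told apart, here and in all that follows.

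Of 20 regulators of the secretory lineage tested, 3 fell and none rose in KO. Besides Atoh1, the targeted gene, whose fall the design sets, these were Gfi1 and Cbfa2t3. Gfi1, a zinc-finger repressor that acts after ATOH1 to hold cells in the goblet and Paneth branch, had 1.95 and 1.76 CPM in KO, against 9.61 and 18.6 CPM in WT (edgeR adjusted p = 0.0403). Cbfa2t3, a corepressor that binds basic helix-loop-helix factors, had 2.96 and 3.30 CPM in KO, against 19.8 and 27.3 CPM in WT (7.57-fold lower, edgeR adjusted p = 0.01285). For each of them the KO libraries were close to each other and the groups did not overlap.

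Further regulators were lower in both KO libraries without passing. Spdef, an Ets factor of goblet maturation, had 16.0 and 19.3 CPM in KO, against 94.0 and 127 CPM in WT, and did not pass in the 8 libraries (edgeR adjusted p = 0.124). Bhlha15, a factor that scales up the secretory apparatus, had 1.16 and 0.983 CPM in KO, against 8.57 and 9.36 CPM in WT. Neurog3, which starts the endocrine programme, had 0 reads in both KO libraries, against 25 and 23 reads in WT, at least 17.5-fold lower in KO when the KO group as a whole is set to 3 counts, the floor used. These 3 genes were called on the 4 colon libraries alone. Creb3l4, Insm1 and Neurod1 also had both KO libraries at or below 1/2 of both WT libraries, which with the genes above made 9 of 20, Atoh1 included. In contrast the forkhead factors Foxa1 and Foxa2, the corepressor Cbfa2t2 and the Krüppel-like factor Klf4 had log2 fold changes between −0.18 and 0.06, and Hes6, an inhibitor of HES1, had 99.3 and 85.6 CPM in KO, against 59.7 and 67.8 CPM in WT (edgeR adjusted p = 0.274). Foxa3, a forkhead factor too, was lower in both KO libraries, with 19.7 and 16.4 CPM, against 31.9 and 52.7 CPM in WT (edgeR adjusted p = 0.379). The list's median log2 fold change was −0.99.

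The promoters of the called genes, which were lower together, were read for E-boxes. RefSeq promoters on GRCm38.p6 were found for 15 of the 21 lower genes, and the 250 bases before the start were searched on both strands for CAGCTG, for the form CAGATG, which reads CATCTG on the other strand, and for any CANNTG, a pattern that takes in both forms. Each gene was read at 1 promoter, the first of its entries, from 32851 entries for 27025 genes, so other promoters of a gene were not searched. The 15 include Atoh1, the targeted gene. CAGCTG was present in 5 of the 15 (33.3%), in 12.8% of the promoters of all 27025 genes and in 11.7% of the 10238 promoters of genes tested. CAGATG was present in 2 of the 15 (13.3%), in 14.5% of all and in 9.87% of those of genes tested. CANNTG was present in 11 of the 15 (73.3%), in 66% of all and in 57.6% of those of genes tested. A match is a description of these letters, not a binding site. The 4 promoters below are shown because 3 of them hold more than 1 of these E-boxes and the fourth, of Hepacam2, holds one 31 bases before the start. They are Cbfa2t3 (chr8:122699110-122699359, minus strand), Rapgef3 (chr15:97767667-97767916, minus strand), Sval1 (chr6:41951378-41951627, plus strand) and Hepacam2 (chr6:3494499-3494748, minus strand), each read 5′ to 3′ on the strand of its gene, with every match to the 2 specific forms in capitals.
Cbfa2t3: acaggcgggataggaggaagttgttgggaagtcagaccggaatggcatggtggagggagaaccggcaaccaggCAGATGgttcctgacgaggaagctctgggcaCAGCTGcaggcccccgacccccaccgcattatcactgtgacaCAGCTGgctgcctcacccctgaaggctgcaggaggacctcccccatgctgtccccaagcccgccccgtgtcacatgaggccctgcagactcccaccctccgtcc
Rapgef3: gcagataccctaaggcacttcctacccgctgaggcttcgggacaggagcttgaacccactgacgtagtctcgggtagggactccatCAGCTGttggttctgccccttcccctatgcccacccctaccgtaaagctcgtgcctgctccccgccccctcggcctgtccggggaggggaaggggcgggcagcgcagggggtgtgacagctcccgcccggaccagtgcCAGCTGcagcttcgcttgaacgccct
Sval1: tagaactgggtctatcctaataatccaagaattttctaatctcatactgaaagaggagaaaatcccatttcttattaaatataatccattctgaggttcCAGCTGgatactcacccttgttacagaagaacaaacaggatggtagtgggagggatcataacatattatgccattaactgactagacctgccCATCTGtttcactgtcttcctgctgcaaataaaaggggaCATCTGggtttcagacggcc
Hepacam2: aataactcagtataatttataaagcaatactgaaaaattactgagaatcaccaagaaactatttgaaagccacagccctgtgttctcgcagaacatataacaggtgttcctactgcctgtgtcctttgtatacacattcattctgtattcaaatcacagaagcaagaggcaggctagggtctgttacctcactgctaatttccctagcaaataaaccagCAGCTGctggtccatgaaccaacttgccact
Pdia5 held 1 match, and the other 10 promoters held neither specific form, namely those of Atoh1, Gfi1, Ano7, Qsox1, Hpd, Mical1, Gm1123, Slc12a8, Ccl6 and Txndc5.

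Goblet cell products formed the group with the lowest median. All 15 secreted goblet products tested had a negative log2 fold change, with a median of −2.97, 14 of 15 had both KO libraries below both WT libraries (2901 of 14415 over all genes), and 13 of 15 were 2-fold apart. Of the 15, 3 fell by the test. Tff3, a trefoil peptide that cross-links mucus and aids repair, had 60.4 and 50.15 CPM in KO, against 624 and 506 CPM in WT, a fall of 10.3-fold (SE 0.33 on the log2 scale, edgeR adjusted p = 0.0301). Spink1, a secreted trypsin inhibitor, had 25.2 and 18.5 CPM in KO, against 148 and 129 CPM in WT (6.39-fold lower, edgeR adjusted p = 0.0317). Sval1, a secreted protein of the seminal vesicle antigen family, had 25.0 and 16.4 CPM in KO, against 175 and 148 CPM in WT (7.84-fold lower, edgeR adjusted p = 0.0168). In each of the 3 both KO libraries lay far below both WT libraries. In sorted ATOH1-GFP cells of the colon Spink1 had 38.9, 66.9 and 225.9 CPM. Tff3 had 1367, 664.8 and 1355 CPM there and Sval1 748, 959.3 and 938.8 CPM.

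The most abundant mucus genes were lower in both KO libraries without passing in the 8 libraries. Clca1, a metalloprotease that processes the mucus network, had 480 and 577 CPM in KO, against 2632 and 9397 CPM in WT, so the groups did not overlap but WT 2 was far above WT 1. Muc2, the gel-forming mucin, had 187 and 281 CPM in KO, against 571 and 1568 CPM in WT. Fcgbp, a protein cross-linked to that mucin, had 488 and 411.5 CPM in KO, against 3272 and 6838 CPM in WT (edgeR adjusted p = 0.211). Zg16, a lectin that binds Gram-positive bacteria, was steadier in the colon, with 176 and 181 CPM in KO, against 1417 and 1319 CPM in WT. Zg16 had an edgeR adjusted p of 0.32 in the 8 libraries, where its ileum WT libraries had 1245 and 381 CPM, and of 0.000297 on the 4 colon libraries alone, which also called Spink4 and Agr2. Together Muc2, Clca1, Fcgbp, Zg16, Tff3 and Agr2 took 0.225 and 0.233% of gene counts in KO, against 1.242 and 2.84% in WT.

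**Figure D3:**
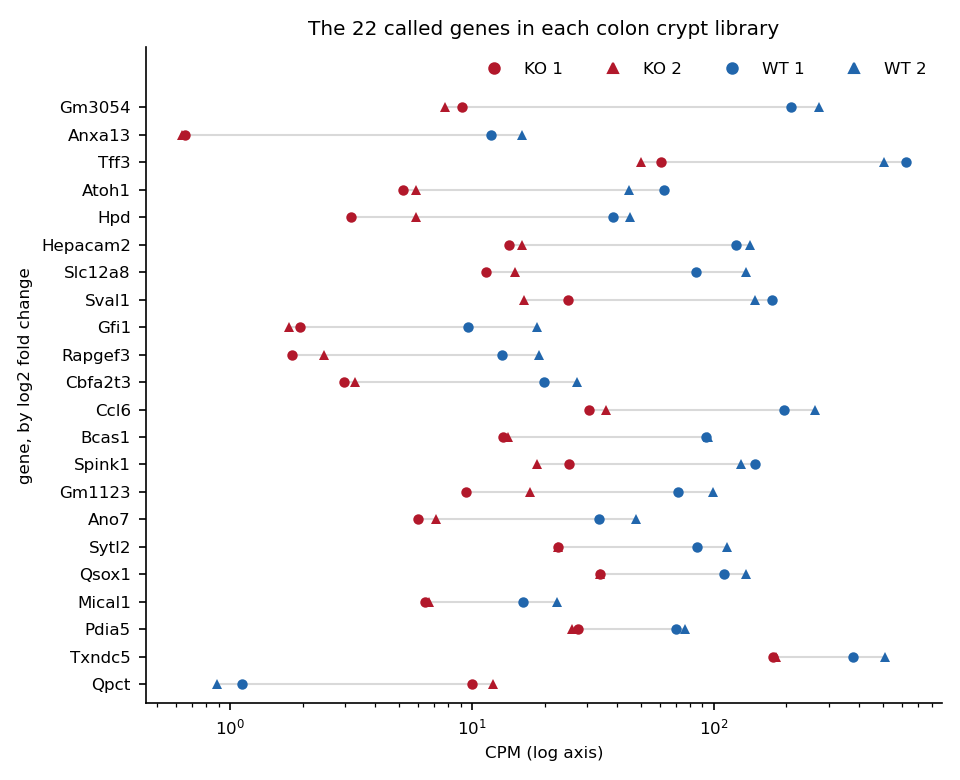
CPM on a log axis of the 22 called genes in the 2 KO libraries (red) and the 2 WT libraries (blue), with circles for library 1 and triangles for library 2. No gene has overlapping groups, and Qpct at the bottom is the 1 gene with KO above WT.

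Genes of the goblet cell interior and surface were the list with the most calls. Of 22 tested, 7 fell, 15 were called on the colon libraries alone, all 22 had a negative log2 fold change and 14 were 2-fold apart, with a median of −2.55. Hepacam2, an immunoglobulin-like membrane protein, had 14.2 and 16.1 CPM in KO, against 124 and 142 CPM in WT (8.84-fold lower, SE 0.22 on the log2 scale, edgeR adjusted p = 0.00686). Bcas1 had 13.5 and 14.1 CPM in KO, against 92.7 and 94.7 CPM in WT (edgeR adjusted p = 0.0168). In both genes the replicates nearly coincided.

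Metabolism and transport were among the functions of the other goblet genes that fell. Hpd, an enzyme of tyrosine breakdown, had 3.18 and 5.90 CPM in KO, against 38.3 and 45.2 CPM in WT (edgeR adjusted p = 0.0303). Slc12a8, of the cation-chloride cotransporter family, had 11.4 and 15.1 CPM in KO, against 84.8 and 136 CPM in WT (edgeR adjusted p = 0.0403). Ano7, an anoctamin of the family of chloride channels and lipid scramblases, had 5.995 and 7.09 CPM in KO, against 33.7 and 47.8 CPM in WT (edgeR adjusted p = 0.00867). The chemokine Ccl6 had 30.4 and 36.0 CPM in KO, against 195 and 262 CPM in WT (edgeR adjusted p = 0.0452). The related chemokine Ccl9 had 3.76 and 4.92 CPM in KO, against 20.5 and 26.9 CPM in WT, and was called on the colon libraries alone. The other 8 epithelial chemokines tested were not called in either fit, and Cx3cl1, the most abundant of them, had 56.1 and 68.1 CPM in KO, against 56.5 and 60.5 CPM in WT.

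The sugar-making enzymes of this list did not share the size of its median. Gne and Nans, which make sialic acid for mucins, had log2 fold changes of −0.06 and −0.38. Gne had 450 and 473 CPM in KO, against 404 and 548 CPM in WT, and its groups overlapped.

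Among the 48 mucin O-glycosylation genes tested none was called in the 8 libraries, the median was −0.30 and 4 were 2-fold apart, all lower in KO. On the colon libraries alone 5 of the 48 were called, all lower (93 of 13801 over all genes). St6gal1, which adds sialic acid, had 9.97 and 8.99 CPM in KO, against 67.2 and 78.4 CPM in WT (edgeR adjusted p = 0.144, and 0.000384 on the colon libraries alone). Chst4, a sulfotransferase, had 14.95 and 14.1 CPM in KO, against 58.3 and 104 CPM in WT. Among the more abundant members, B4galnt2, which adds a terminal sugar, had 1027 and 943 CPM in KO, against 1099 and 830 CPM in WT. The sulfate transporter Slc26a2 had 1116 and 1301 CPM in KO, against 1010 and 761 CPM in WT, and B3galt5, a galactosyltransferase, had 755 and 717.5 CPM in KO, against 800 and 946 CPM in WT. A4gnt, which adds the terminal N-acetylglucosamine of gland mucins, is not on this list and was called on the colon libraries alone. It had 4.33 and 8.01 CPM in KO and 61.5 and 60.1 CPM in WT.

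**Figure D4:**
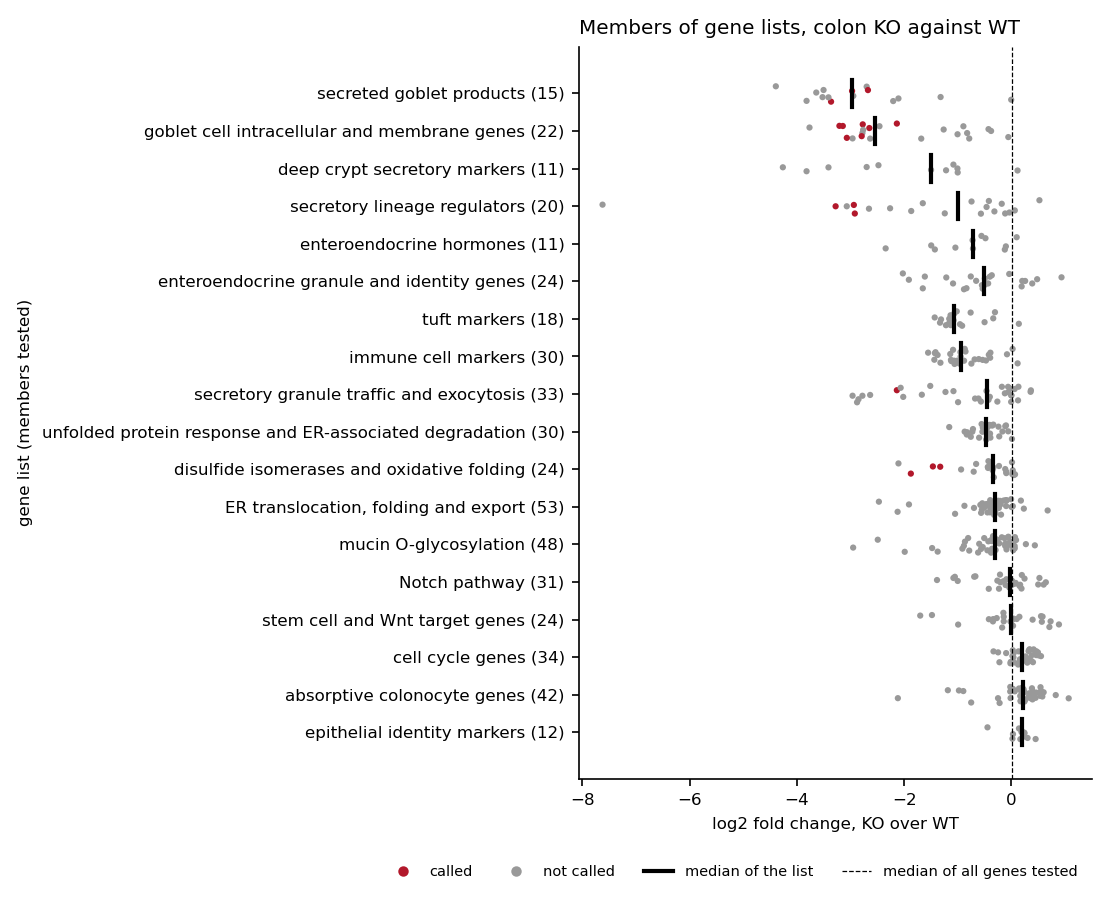
Log2 fold change of KO over WT for the members tested of 18 gene lists, 1 point a gene, red where called, with the median of each list as a black bar and that of all genes tested (0.01) as a dashed line. The 2 goblet lists have medians of −2.97 and −2.55, while the absorptive, cell cycle and epithelial lists lie between 0.19 and 0.22.

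Enzymes that form disulfide bonds, which mucins need for their polymers, fell as 3 of 24 tested. Qsox1, a secreted and Golgi sulfhydryl oxidase, had 33.9 and 34.0 CPM in KO, against 110 and 137 CPM in WT (3.67-fold lower, SE 0.19 on the log2 scale, edgeR adjusted p = 0.0258). Pdia5, a disulfide isomerase of the endoplasmic reticulum (ER), had 27.5 and 25.9 CPM in KO, against 69.9 and 76.3 CPM in WT (2.76-fold lower, edgeR adjusted p = 0.00515). Txndc5, another isomerase, had 175 and 181 CPM in KO, against 376 and 512 CPM in WT (2.51-fold lower, edgeR adjusted p = 0.0465). The general isomerases were nearer to even. P4hb had 692.5 and 604 CPM in KO, against 853 and 819 CPM in WT, and Pdia3 720.5 and 619 CPM in KO, against 844 and 851 CPM in WT. The median of the 24 was −0.34.

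Other ER genes did not pass one by one in the 8 libraries, although most had lower values in both KO libraries. Of 53 genes of ER translocation, folding and export none was called, 43 had both KO libraries below both WT libraries and the median log2 fold change was −0.31. Of 30 genes of the unfolded protein response and ER-associated degradation none was called, 25 had no overlap in that direction and the median was −0.47. On the colon libraries alone 4 of the 53 were called lower, as was 1 of 29 tested of the second list (93 of 13801 over all genes). Of the 53, 3 were 2-fold apart as lower in KO, and of the 30 none (187 of 14415). Copz2, of the 53, had 1.08 and 1.475 CPM in KO, against 5.80 and 8.34 CPM in WT, and was called on the colon libraries alone. Hspa5, the main ER chaperone, had 545 and 350 CPM in KO, against 740 and 761 CPM in WT, with the KO libraries further apart than the WT libraries. Hyou1, a co-chaperone, had 125 and 86.3 CPM in KO, against 188 and 195 CPM in WT. Xbp1, the transcription factor of this response, had 160 and 127.5 CPM in KO, against 203 and 190 CPM in WT (edgeR adjusted p = 0.456). Over all genes tested, 2901 of 14415 had both KO libraries below both WT libraries.

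In the machinery of granule release 1 of 33 genes tested fell (21 of 14415 over all genes). Of the 33, 10 were 2-fold apart as lower in KO (187 of 14415) and the median was −0.46. Sytl2, which tethers granules through RAB27, had 22.8 CPM in each KO library, against 85.3 and 114 CPM in WT (4.396-fold lower, edgeR adjusted p = 0.0408). Rep15, a RAB15 effector, had 6.93 and 7.235 CPM in KO, against 51.15 and 45.45 CPM in WT, and was called on the colon libraries alone. Capn9, a gut calpain, had 5.995 and 6.74 CPM in KO, against 31.7 and 66.6 CPM in WT. Dnm2, a dynamin used for membrane traffic in most cells, had 211 and 229 CPM in KO, against 226 and 211 CPM in WT, and its groups overlapped.

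Of 22 ion channels and transporters of secretory epithelium 2 fell, Slc12a8 and Ano7. Best2, a bicarbonate and chloride channel of colonic goblet cells, had 2.96 and 1.26 CPM in KO, against 33.1 and 24.1 CPM in WT (edgeR adjusted p = 0.0571, and 0.0311 on the colon libraries alone). Channels of fluid secretion that other crypt cells also use were not called. Cftr, the cystic fibrosis chloride channel, had 283 and 221 CPM in KO, against 164 and 237 CPM in WT, and Slc12a2, the basolateral cotransporter that feeds it, had 437 and 490 CPM in KO, against 444 and 571 CPM in WT. The groups of both genes overlapped.

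Rapgef3 and Mical1 were called from outside the lists. Rapgef3, an exchange factor for the small GTPase RAP that is switched on by cyclic AMP, had 1.81 and 2.46 CPM in KO, against 13.3 and 18.9 CPM in WT (7.60-fold lower, edgeR adjusted p = 0.0258). Mical1, an oxidase that takes actin filaments apart, had 6.43 and 6.67 CPM in KO, against 16.4 and 22.5 CPM in WT (2.99-fold lower, edgeR adjusted p = 0.0317). The predicted genes Gm3054 and Gm1123 were also called and are named here after their values were seen. Gm3054 had 9.10 and 7.73 CPM in KO, against 209.5 and 273 CPM in WT, and Gm1123 had 9.46 and 17.5 CPM in KO, against 71.3 and 99.4 CPM in WT.

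Anxa13, an annexin that binds membranes in intestinal epithelium, had the smallest p and an effect that differed between tissues. It had 0.650 and 0.632 CPM in colon KO, from 9 reads in each library, against 12.03 and 16.2 CPM in colon WT (21.97-fold lower, SE 0.21 on the log2 scale, edgeR adjusted p = 0.00143). In ileum it had 182 and 175 CPM in KO and 115 and 112 CPM in WT. The difference of the knockout effects, colon minus ileum, was −5.15 on the log2 scale (SE 0.25, edgeR adjusted p = 0.00179), the 1 gene called of 14415 by that test. The other 9 annexins tested in colon were not called. Anxa2, the most abundant, had 700 and 623 CPM in KO, against 642 and 548 CPM in WT.

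Spink1 and Mical1 also fell in colon with nearly level values in ileum, but the difference did not pass. Spink1 had 114 and 117 CPM in ileum KO and 143 and 83.3 CPM in ileum WT (interaction edgeR adjusted p = 0.314). Mical1 had 23.5 and 21.8 CPM in ileum KO and 25.1 and 24.3 CPM in ileum WT (interaction edgeR adjusted p = 0.436).

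Deep crypt secretory markers, of the cells that flank colonic stem cells, had a median log2 fold change of −1.50 over 11 genes, with none called and 5 that were 2-fold apart as lower in KO. Reg4, their best known marker, had 27.1 and 18.1 CPM in KO, against 509 and 125 CPM in WT, with WT 1 far above WT 2 and both above KO. Mptx1, a mucosal pentraxin, had 78.8 and 44.0 CPM in KO, against 619 and 1716 CPM in WT. Retnlb, an antibacterial resistin-like peptide, had 68.8 and 78.8 CPM in KO, against 390 and 1166 CPM in WT. Ang4, an angiogenin of the secreted goblet and Paneth lists, has near-identical relatives whose reads the counting could split. It had 14.8 and 6.39 CPM in KO, against 37.0 and 403 CPM in WT. In these genes 1 WT library was several times the other, and the 8-library test did not pass. Spink4, on the deep crypt list too, was steadier, with 78.3 and 100 CPM in KO, against 595 and 556 CPM in WT. It was called on the colon libraries alone (edgeR adjusted p = 0.000889), not in the 8 libraries. Of 16 Paneth markers none was called and 7 were 2-fold apart as lower in KO, among them Ang4, Mptx1 and Itln1, which other lists hold too. Nupr1, a stress-response factor on the Paneth list, had 20.4 and 30.5 CPM in KO, against 75.65 and 94.4 CPM in WT. Lyz1, their lysozyme, had at most 16.4 CPM in any colon library.

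Enteroendocrine genes were lower in part. Of 11 hormone genes none was called and the median was −0.72, and of 24 granule and identity genes none was called and the median was −0.52. Gcg, the proglucagon gene, had 19.5 and 24.0 CPM in KO, against 48.1 and 41.1 CPM in WT, and was called on the colon libraries alone. Pyy, peptide YY, had 23.9 and 25.9 CPM in KO, against 38.0 and 31.2 CPM in WT. Insl5, the insulin-like peptide of distal L cells, had 23.8 and 25.6 CPM in KO, against 26.7 in both WT libraries. The granule protein Chga had 13.4 and 23.0 CPM in KO, against 29.8 and 31.4 CPM in WT. These hormone RNAs were present in the KO libraries, which had 0 Neurog3 reads.

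Tuft cells are chemosensory epithelial cells. Of 18 tuft markers none was called, none was 2-fold apart, and the median was −1.07. Dclk1 had 4.33 and 6.39 CPM in KO, against 6.58 and 14.8 CPM in WT. Of the 18, 17 had a negative log2 fold change (6996 of 14415 over all genes) and 9 had both KO libraries below both WT libraries (2901 of 14415). The summed CPM of the list was 29.25 and 44.95 in KO, against 44.4 and 90.9 in WT, so KO 2 lay above WT 1. The WT libraries differed in this list by a median log2 ratio of 1.11, WT 2 over WT 1, larger in size than the list's median.

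The Notch pathway, which sets the choice between secretory and absorptive fate, showed no called gene among 31 tested and a median of −0.03. The ligands made by secretory precursors had lower values in both KO libraries. Dll1 had 6.57 and 7.59 CPM in KO, against 13.5 and 14.6 CPM in WT, and Dll4 had 7.66 and 10.04 CPM in KO, against 17.1 and 20.03 CPM in WT (edgeR adjusted p = 0.194 and 0.252). Neither pair of groups overlapped. The receptor Notch1 had 54.6 and 55.7 CPM in KO, against 28.2 and 48.9 CPM in WT. The ligand Jag1 had 24.6 and 23.3 CPM in KO, against 16.9 and 35.5 CPM in WT, and the target Hes1 had 45.0 and 51.35 CPM in KO, against 61.7 and 49.2 CPM in WT. Both overlapped. Adam10, a protease that sheds the outer part of Notch receptors, had 173 and 176 CPM in KO, against 168 and 160 CPM in WT.

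None of the absorptive colonocyte genes was called in the 8 libraries, with a median of 0.22 over 42 genes, 14 with both KO libraries above both WT libraries (3244 of 14415 over all genes) and 4 with both below. Car1, a carbonic anhydrase of surface cells, had 4633 and 4935 CPM in KO, against 6090 and 1475 CPM in WT. Slc26a3, the chloride and bicarbonate exchanger, had 853 and 1016 CPM in KO, against 762 and 515 CPM in WT. Slc9a3, the apical sodium and proton exchanger, had 158 and 256 CPM in KO, against 116 and 80.4 CPM in WT (log2 fold change 1.07, edgeR adjusted p = 0.415). The WT libraries differed from each other in this list by a median log2 ratio of −0.46, WT 2 over WT 1, which is larger in size than the list's median.

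The 4 absorptive genes called on the colon libraries alone were all lower in KO. They were Scnn1b, Guca2b, Sult1a1 and Hsd11b2. Scnn1b, a subunit of the epithelial sodium channel that aldosterone induces, had 1.88 and 2.18 CPM in KO, against 7.88 and 9.64 CPM in WT. Hsd11b2, which shields the aldosterone receptor from glucocorticoids, had 195 and 197 CPM in KO, against 346 and 307.5 CPM in WT. Guca2b, the guanylate cyclase ligand uroguanylin, had 6.72 and 6.32 CPM in KO, against 15.4 and 14.1 CPM in WT. The sulfotransferase Sult1a1 had 127 and 130 CPM in KO, against 251.5 and 224 CPM in WT. In each the replicates were close and the groups did not overlap. In sorted ATOH1-GFP cells of the colon Guca2b had 136.9, 140.9 and 150.5 CPM and Scnn1b 9.354, 14.69 and 24.06 CPM. Sult1a1 and Hsd11b2 were not compared with those cells. The aldosterone receptor Nr3c2 had 129 and 137 CPM in KO, against 134 and 119 CPM in WT.

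No stem or cycling gene was called. Of 24 stem cell and Wnt target genes 12 had a negative and 12 a positive log2 fold change. Lgr5, the stem cell receptor for R-spondin, had 13.1 and 14.5 CPM in KO, against 11.2 and 7.59 CPM in WT. Ephb3, a guidance receptor of Paneth and deep crypt cells, had 21.2 and 19.3 CPM in KO, against 33.7 and 46.3 CPM in WT. Of 34 cell cycle genes 19 had both KO libraries above both WT libraries (3244 of 14415 over all genes) and 3 had both below (2901 of 14415), and the median was 0.19. Mki67, a marker of cycling cells, had 283 and 269 CPM in KO, against 213 and 225 CPM in WT (edgeR adjusted p = 0.472). Ccnb1, the mitotic cyclin, had 12.1 and 11.9 CPM in KO, against 8.83 and 7.45 CPM in WT. The epithelial identity markers had the same median of 0.19 over 12 genes, 10 of them with both KO libraries above both WT libraries (3244 of 14415 over all genes).

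**Figure D5:**
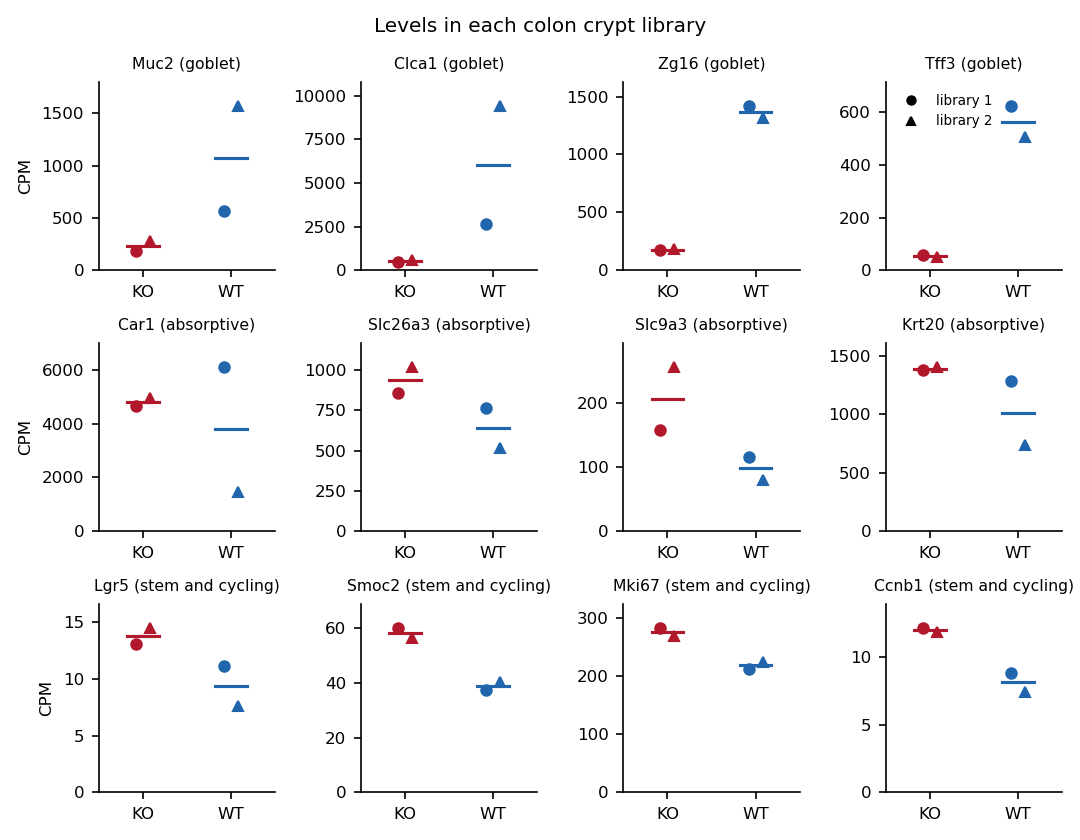
CPM in each colon library for 4 goblet genes, 4 absorptive genes and 4 stem or cycling genes, KO in red left of WT in blue, with circles for library 1, triangles for library 2 and bars for the mean of the 2 libraries. Goblet genes are lower in both KO libraries, Car1 lies between its WT libraries, and Mki67 is at 283 and 269 CPM in KO and 213 and 225 CPM in WT.

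By the 8-library test Qpct was the 1 gene that rose. Qpct, a glutaminyl cyclase that caps peptides and chemokines with pyroglutamate, had 10.04 and 12.2 CPM in KO, against 1.13 and 0.889 CPM in WT, from 139 and 174 reads in KO and 13 in each WT library. The groups were far apart, with a rise of 10.95-fold (log2 fold change 3.45, SE 0.40, edgeR adjusted p = 0.0403). In sorted ATOH1-GFP cells of the colon Qpct stood at 0, 0.125 and 0 CPM.

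A further 8 genes were called higher on the colon libraries alone. Rims4, a protein of the presynaptic release zone, had 22.4 and 21.0 CPM in KO, against 2.51 and 2.87 CPM in WT (log2 fold change 2.99, edgeR adjusted p = 0.0636 in the 8 libraries and 0.000992 in the colon alone). Fer1l4, a noncoding relative of the ferlins, had 20.3 and 19.7 CPM in KO, against 3.81 and 5.604 CPM in WT. Gprc5a, a retinoic acid-induced receptor and the most abundant of the 8, had 306 and 251 CPM in KO, against 157 and 150 CPM in WT. Vsig1, a junction protein, had 36.0 and 29.3 CPM in KO, against 14.6 and 15.4 CPM in WT. In each of these 4 genes both KO libraries were above both WT libraries. Fam43a, Ahcy, Ndufs5 and Slc25a4 were the others, 1.89 to 2.69-fold higher in KO. Ndufs5 and Ahcy have close copies elsewhere in the genome, so their counts are uncertain. In the sorted GFP cells Gprc5a had 14.5, 21.9 and 26.3 CPM and Rims4 1.59, 2.99 and 1.94 CPM. Fer1l4, Vsig1 and Fam43a were below every colon crypt library there, with at most 0.747, 2.84 and 3.49 CPM. The others were not, with 24.55, 27.52 and 44.08 CPM for Ahcy and 25.83, 31.75 and 28.39 CPM for Slc25a4. Ndufs5 had 10.84, 8.716 and 13.15 CPM there.

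Markers of other cells in the crypt preparation were not called in either fit. Of 30 immune cell markers 16 had both KO libraries below both WT libraries (2901 of 14415 over all genes), the median was −0.95 and the summed CPM was 183 and 154 in KO, against 328 and 246 in WT. Ptprc, found on all white blood cells, had 11.2 and 14.1 CPM in KO, against 31.9 and 21.1 CPM in WT. Gzma, a granzyme of intraepithelial lymphocytes, had 6.72 and 5.55 CPM in KO, against 22.1 and 13.9 CPM in WT. Of 20 markers of stroma, muscle, vessel, glia and blood the median was −0.12, and the sums overlapped at 137 and 204 CPM in KO, against 225 and 179 CPM in WT. S100b, of glia, was at 0 in WT 1, and every other marker tested had reads in all 4 libraries. The part of these cells in the results was not tested.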

How the data were processed

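Gene counts of the 4 colon crypt libraries, the 4 ileum crypt libraries and the 6 sorted ATOH1-GFP libraries were used as deposited by the authors, 1 table of raw counts per library. Per the submitters' processing notes, TopHat 1.4.1, HTSeq and the mouse build mm9 were used, and strand handling is not given in the sources used here. Reads that HTSeq left outside genes were kept out of library sizes, and came to 12.1 and 11.43% of the tallied reads in colon KO and 11.52 and 11.35% in colon WT.

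From these counts, edgeR 4.0.16 in R 4.3.3 gave TMM factors, a filter on low counts by group and a robust quasi-likelihood fit of the 8 crypt libraries, with colon KO over colon WT as the contrast and Benjamini-Hochberg adjustment over all genes tested. The CPM values were scaled with TMM factors from all 14 libraries. The scripts were tested on simulated data first. Alternatives were the 4 colon libraries alone, all 14 libraries, DESeq2 1.42.0, other scalings, no filter, a replicate block and leaving out each colon library. With 2 libraries per group the spread is poorly known.

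The gene lists were chosen with earlier results of these data known. Genes were named by rule: Atoh1, each called gene with a symbol that is not a predicted-gene name, the 10 largest in each direction called on the colon libraries alone at 10 CPM or more, the 10 largest uncalled rises, all members of the regulator and Notch lists, and from each list its called members, the 4 most abundant and the 2 with the largest fold at 5 CPM or more. Other genes named were chosen after their values were seen. Promoters came from RefSeq on GRCm38.p6, which differs from the build of the counts, and were matched by symbol.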

Additional observations from a re-analysis of the deposited data

Results flagged for a closer look

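Anxa13, the membrane-binding annexin, had a knockout effect that differed between colon and ileum by the test of the difference itself (edgeR quasi-likelihood test of the interaction, Benjamini-Hochberg adjusted p = 0.00179). It had 0.650 and 0.632 CPM in colon KO, against 12.03 and 16.2 CPM in colon WT. In ileum it had 182 and 175 CPM in KO, against 115 and 112 CPM in WT. With the same-numbered colon and ileum libraries as blocks the edgeR adjusted p was 0.00643. Without colon KO 1 the adjusted p was 0.0703 and without colon KO 2 it was 0.0721, while the difference on the log2 scale was −5.17 and −5.13, against −5.15 with all 8 libraries.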

How the results depend on the processing

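Against 22 genes in the 8 libraries, edgeR called 102 on the 4 colon libraries alone, 73 with all 14 libraries and 56 with no filter on low counts, and DESeq2 called 159. Leaving out 1 colon library gave 0 to 14 calls in the 8-library fit and 54 to 265 in the colon libraries alone, an alternative chosen after seeing the data. With the replicate number as a block within tissue 19 genes were called, 15 of them among the 22. Same-numbered colon libraries did not deviate together (correlation −0.01 across genes), although 1 pair of differences cannot exclude a pairing within the colon. Across tissues they did: the difference between libraries 1 and 2 correlated between colon and ileum at 0.32 in KO and 0.27 in WT, across genes, so the 8-library fit may count related samples as independent. The test of the difference between tissues called 1 gene, 9 with no filter, 58 by DESeq2, 1 with the block within tissue, 2 with blocks across tissues and 0 to 1 when a colon library was left out. Those blocks were chosen after seeing that same-numbered libraries of the 2 tissues share sex-linked expression. The cause of these changes was not tested. None of the 20 called genes named by rule turned direction, while 79 of their values missed the threshold. The gap of at least 2-fold between the KO and WT libraries of these 20 genes left little room for a turn. Of 223 named genes that were not called, 52 turned sign under at least 1 alternative, Car1 among them (−0.35 to 1.68). Of 35 lists, 27 kept the sign of their median under all 11 alternatives. With 2 libraries a group, small differences are not detectable.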

Other observations

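Of 35 regional and epithelial transcription factors none was called and the median log2 fold change was 0.15. Hnf4a, a nuclear receptor of the absorptive programme, had 969 and 926 CPM in KO, against 859 and 735.5 CPM in WT. Cdx1, a homeobox factor of intestinal identity, had 376 and 364 CPM in KO, against 359 and 361 CPM in WT. Of 18 claudin and junction genes none was called, the median was 0.14, 11 had both KO libraries above both WT libraries and 2 had both below. Cldn2, a cation pore of the crypt base, had 199 and 194.5 CPM in KO, against 242 and 273.5 CPM in WT. Of 28 interferon and antigen presentation genes none was called, the median was 0.16, 11 had both KO libraries above both WT libraries and 0 had both below. Over all genes tested 3244 of 14415 had both above and 2901 both below. Cd74, the invariant chain, had 1783 and 1526 CPM in KO, against 1502 and 1244 CPM in WT.

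Of 26 antimicrobial and oxidase genes none was called in the 8 libraries. Saa3, an acute-phase serum amyloid, had 6.501 and 7.52 CPM in KO, against 30.8 and 24.95 CPM in WT, and was called on the colon libraries alone. Reg3b, an antibacterial lectin, had 2692 and 759 CPM in KO, against 2871 and 1832 CPM in WT, so KO 2 stood apart. Nxpe4 differed within groups, with 20.9 and 1.33 CPM in KO, against 45.35 and 0.752 CPM in WT. Pigr, the receptor that carries antibodies into the lumen, had 6334 and 6973 CPM in KO, against 6260 and 6426 CPM in WT.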
